A study of Mus musculus with 10 samples.

Results

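Collagen chains are the subject here, taken as every protein-coding gene whose symbol has the form Col, a number, a and a number. The annotation held 44 such genes of 54309, and reads were found for 43 of them in all 10 libraries. By their known structure 11 chains are fibrillar, 6 form the type IV network of basement membranes, 9 are FACITs (fibril-associated chains with interrupted triple helices) and 18 belong to other classes. The tissue was ipsilateral L4 and L5 dorsal root ganglia (DRG) of C57BL/6 mice of 6 to 8 weeks, taken 24 h after sciatic nerve axotomy (transection) or after a sham operation in which the nerve was exposed and left uncut. The libraries fall into 3 axotomy and 2 sham samples of each sex, and each pools DRG of 2 mice, so a value is a mean over animals. Because whole ganglia were sequenced, fewer cells of a type and less RNA per cell cannot be told apart.

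Collagens are extracellular proteins built from chains wound together into a triple helix. Fibrillar chains (types I, II, III, V, XI, XXIV and XXVII) make the fibrils of connective tissue, FACITs sit on the surface of such fibrils, and type IV chains form the sheet that underlies endothelium and wraps Schwann cells and the glia around each sensory neuron. In a ganglion the fibrillar and type VI chains come mainly from fibroblasts of the capsule and endoneurium, and type IV, V and XXVIII chains are known products of Schwann cells and vessels.

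Estimated counts summed to 55258476 to 90111671 per library, and collagen genes held 0.120% to 0.203% of them. Markers of sensory neurons were abundant in every library, at a summed 6983 to 10270 CPM (counts scaled to the library total) over 8 genes, as the label DRG implies. Levels below are TPM (transcript abundance scaled to a fixed library total, the authors' length-corrected unit, which allows genes to be compared), and log2FC, SE and padj come from edgeR's quasi-likelihood F test with Benjamini-Hochberg adjustment over 20836 genes, called at padj under 0.1. The p-values measure the spread between these pooled libraries. Of the 44 chains 43 were tested, and Col9a1, a cartilage FACIT chain with 0 to 10 counts, was not.

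Levels differed widely between chains. The highest mean belonged to Col1a2, the second chain of type I collagen, at 67.0 TPM, followed by Col28a1 (42.0), a chain of peripheral nerve with von Willebrand factor A domains, Col3a1 (41.0), the type III chain of soft tissue, Col5a3 (40.5), a type V chain made by Schwann cells, and Col16a1 (40.4), a FACIT. The means of Col28a1, Col3a1, Col5a3 and Col16a1 lay closer to each other than their own libraries did, so their order is not resolved. These 5 chains held 47.5% of collagen TPM and the first 10 held 69.8%. At the other end 13 chains stayed below a mean of 1 TPM, among them the cartilage chain Col2a1 (0.741), Col17a1 of hemidesmosomes (0.0764) and Col4a6 (0.0363). Col1a1, the partner of Col1a2 in type I collagen, averaged 22.1 TPM.

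**Figure D1:**
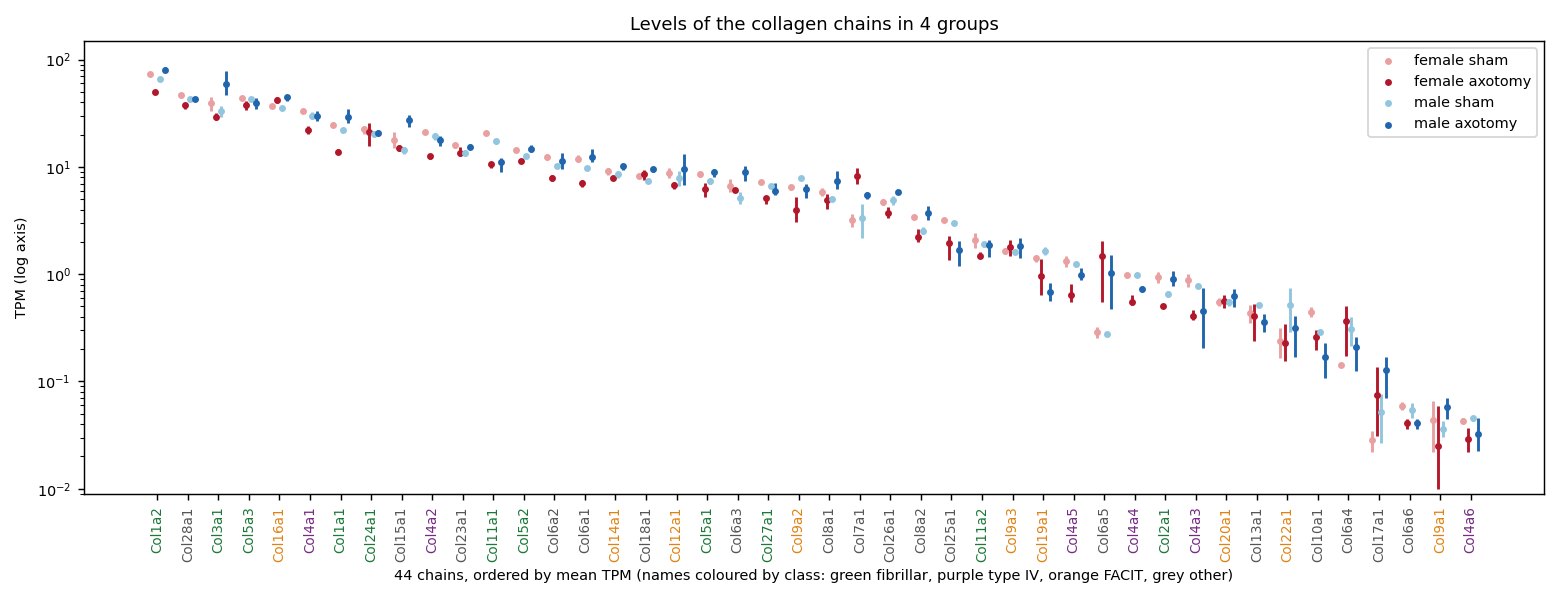
Mean TPM (point) and range over libraries (vertical line) of each of the 44 chains in the 4 groups, on a log axis, ordered by the mean over 10 libraries. Col1a2 leads with a mean of 67.0 TPM and the chains fall to 0.0363 TPM for Col4a6; a library at 0 is drawn at the lower end of the axis.

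Summed over all chains, collagen TPM went down after axotomy in females and up in males. It was 527 and 518 TPM in female sham, 419, 407 and 394 in female axotomy, 477 and 465 in male sham, and 532, 538 and 579 in male axotomy. No axotomy library overlapped the sham libraries of its sex, and the ratio of means was 0.779 in females and 1.17 in males. Sums over members were not tested. They take in all annotated transcripts, and short ones gain much TPM from few reads, as given further on. In males the mean TPM of short Col3a1 transcripts was 6.29 in sham and 22.7 after axotomy, against 26.8 and 36.6 for long ones. For Col15a1 the short ones had 0.788 and 12.9, and the long ones 13.5 and 14.4. Short transcripts of some chains fell there, such as Col11a1 (8.42 and 5.48). The part of short transcripts in the summed gain was not tested.

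The classes, also summed over all annotated transcripts, did not share this loss and gain equally. Fibrillar chains carried the largest part, with 265 and 251 TPM in female sham, 199, 184 and 177 in female axotomy, 232 and 231 in male sham, and 257, 261 and 297 in male axotomy. Type IV chains stood at 56.9 and 58.9 TPM in female sham and 33.7 to 39.4 in female axotomy. Their ratio of 0.628 was the lowest of the 4 classes as grouped here. In males their libraries overlapped, at 56.2 and 48.9 in sham and 44.6 to 55.4 after axotomy, and the ratio was 0.949 in TPM but 1.05 in CPM. FACIT libraries overlapped in females (64.4 and 66.1 against 61.5 to 68.4) and were higher after axotomy in males (63.0 and 65.0 against 73.4 to 74.9). The 18 other chains were at 140 and 143 TPM in female sham against 118 to 121 after axotomy, and at 126 and 121 in male sham against 146 to 164.

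**Figure D2:**
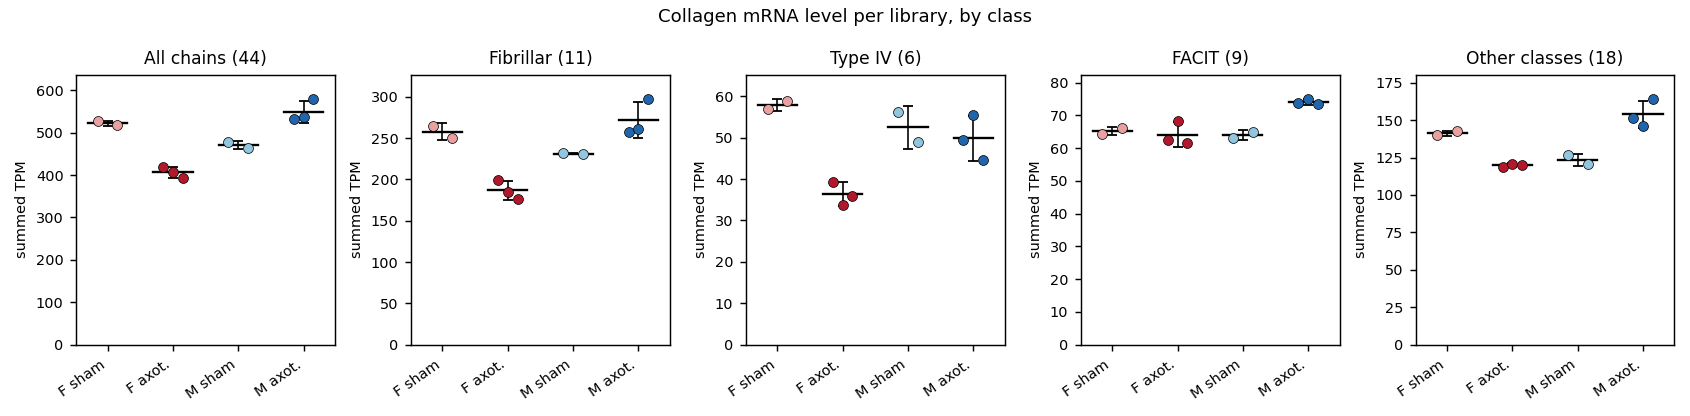
Summed TPM of all 44 chains and of each class, over all transcripts, in every library (1 point each), with the group mean and SD. F is female, M male. Female axotomy libraries lie below female sham for all chains (394 to 419 against 518 to 527), and male axotomy libraries lie above male sham (532 to 579 against 465 to 477); type IV shows the drop in females and an overlap in males.

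As a share of all collagen TPM, type IV chains were lower after axotomy in both sexes, without overlap of libraries. They went from 11.1% ± 0.393 (SD, n = 2) to 8.93% ± 0.594 (n = 3) in females and from 11.1% ± 0.888 to 9.10% ± 1.31 in males. This depended on the grouping. With Col7a1, Col15a1 and Col18a1 counted as basement membrane too, the share was 16.7% and 16.8% in females and 16.5% and 16.8% in males, with overlap. The fibrillar share went from 49.4% to 45.8% in females and did not separate in males (49.1% and 49.4%). The FACIT share was 12.5% in female sham and 15.8% in female axotomy, and its libraries overlapped in males.

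Gene by gene, axotomy changed 17 of 43 chains in females, 4 upregulated and 13 downregulated, where 20.1% of all genes passed (10.4% higher and 9.74% lower). In males it changed 23 chains, 20 upregulated and 3 downregulated, where 41.9% of all genes passed (21.8% higher and 20.1% lower). The median log2FC of the chains was −0.30 in females and 0.37 in males, against 0.00 and 0.03 over all genes tested. A chain was higher in both sexes in 3 cases (Col6a5, Col7a1 and Col16a1) and lower in both in 2 (Col11a1 and Col25a1), 6.98% and 4.65% of the chains against 7.84% and 7.61% of all genes, so neither share stood above that of all genes. In 5 cases the chain passed in opposite directions, lower in females and higher in males, namely both type I chains Col1a1 and Col1a2, Col2a1, and the type VI chains Col6a1 and Col6a2. Over all genes 47 of 20836 did so. Of the 17 female calls 13 to 15 were kept with 1 female axotomy library left out. Of the 23 male calls 21 to 23 were kept with 1 male axotomy library left out. Many calls were lost without a sham library of that sex, a fit that leaves 1 library in the sham group. Fewer of all genes passed in that sex then too.

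The male log2FC exceeded the female log2FC for 35 of 43 chains (81.4%, against 48.2% of all genes), among them 11 of 11 fibrillar and 6 of 6 type IV chains. A negative value in females with a positive one in males was found for 22 chains (51.2%, against 14.3% of all genes). Normalized CPM are counts corrected for edgeR's library scaling (TMM) and for average transcript length. The log2FC follow these values and can differ from TPM. By normalized CPM, all female axotomy libraries lay below all female sham libraries for 23 chains (25.9% of all genes) and above for 4 (26.2%). All male axotomy libraries lay above male sham for 22 chains (29.3% of all genes) and below for 5 (28.2%). Both held in opposite directions for 10 chains, always below in females and above in males, which 1.44% of all genes showed.

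**Figure D3:**
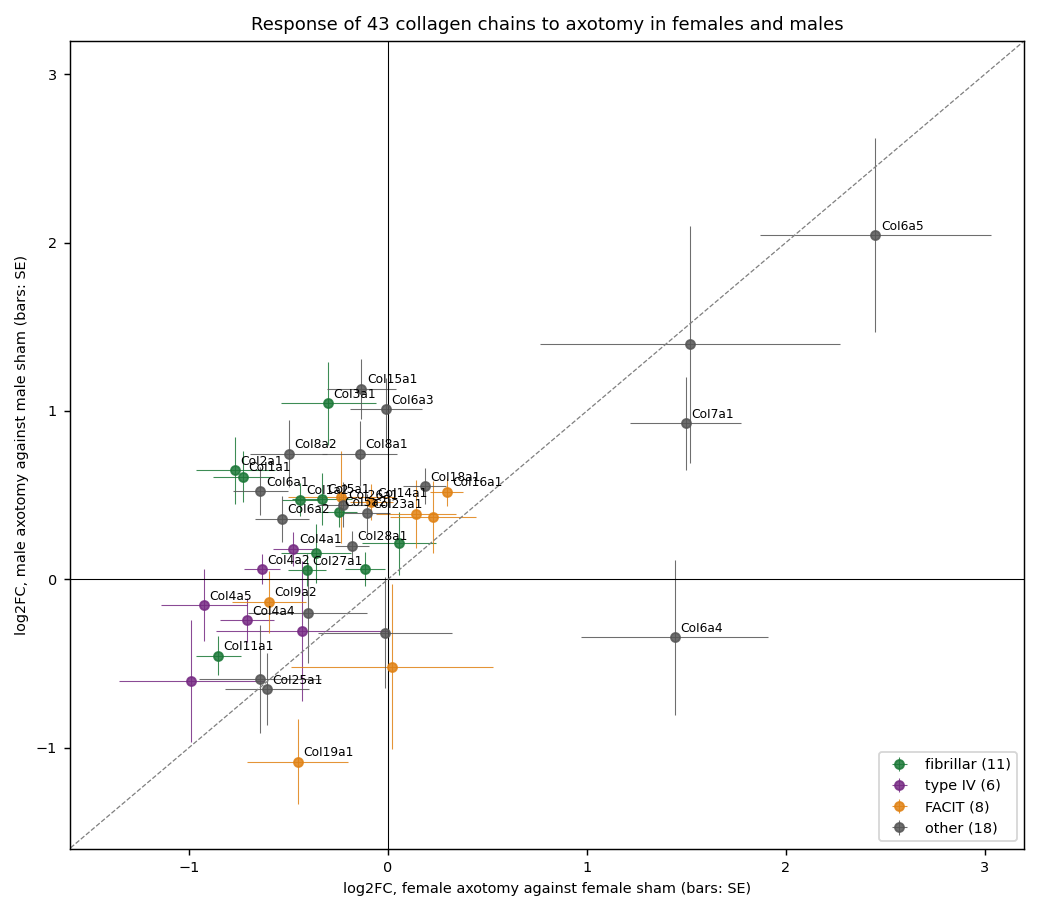
log2FC of axotomy against sham in females (horizontal) and males (vertical) for the 43 chains tested, colored by class, with SE bars; the dashed line marks equal responses and names mark chains called in either sex. Most points lie above the line (35 of 43), and Col6a5, Col7a1 and an unlabelled point, Col17a1, stand apart at the upper right.

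The difference between the 2 responses, tested as an interaction of sex and injury, passed for 0 of 43 chains by edgeR, where 0.0192% of all genes passed. At an unadjusted p under 0.05 it held for 24 chains (55.8%, against 11.4% of all genes). DESeq2 called 16 chains, all more positive in males, where 2.43% of all genes were called more positive and 0.693% less, and edgeR with no filter on low counts called 9, where 0.461% and 0.0716% were. Col1a1 and Col1a2 came nearest, each with padj = 0.102 by edgeR, and differences of 1.34 (SE 0.21) and 0.91 (SE 0.14). Without male axotomy 2 the count by edgeR was 20, where 5.71% of all genes were more positive in males and 4.79% less. Without male axotomy 3 it was 3, where 0.0529% were more positive and 0 less.

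Between the sexes no chain passed in sham DRG by edgeR (0.0432% of all genes did, 0.0288% higher and 0.0144% lower in males), 2 had an unadjusted p under 0.05 (4.65%, near the 3.22% of all genes), and DESeq2 called 0. The median male minus female log2 difference in sham was −0.15. It was negative for 34 of 43 chains, among them 11 of 11 fibrillar ones, against 10258 of 20836 genes. Summed collagen TPM of male sham lay below female sham without overlap (ratio of means 0.902). These sham values enter the difference between the 2 responses. After axotomy 15 chains were higher in males and 0 lower, where 1.16% of all genes were higher and 0.355% lower. They were 6 fibrillar, 2 type IV, 2 FACIT and 5 other chains, and the median difference over the 43 chains was 0.43. Col1a1 (1.15, SE 0.13, padj = 0.00585) and Col1a2 (0.76, SE 0.09, padj = 0.00466) passed with any 1 library left out. The other 13 each lost the call without at least 1 library. The number of chains called was 3 without female axotomy 2 (0.0817% of all genes higher) or 3 (0.13%). It was 5 without male axotomy 1 (0.26%) or 3 (0.216%), 6 without female axotomy 1 (0.317%) and 22 without male axotomy 2 (8.81%). Fits without a sham library leave 1 in that group and are not counted here. Sham libraries are not compared here but enter the pooled spread, and calls were lost in those fits as well.

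Some collagen chains are neighbours in the genome. By RefSeq order of protein-coding genes 8 pairs of members are adjacent, among them Col3a1 and Col5a2 on chromosome 1, Col6a2 and Col6a1 on chromosome 10, and Col4a1 and Col4a2 on chromosome 8, whose RefSeq starts on GRCm38.p6 (11312826 on the minus strand and 11312805 on the plus strand) lie 22 bases apart, counting both, so that the genes overlap at their starts. Of the 8 pairs 4 passed in 1 direction together in at least 1 sex, namely Col6a1 with Col6a2 in both sexes, Col4a1 with Col4a2 and Col6a5 with Col6a4 in females, and Col3a1 with Col5a2 in males. The other 4 did not (Col4a3 with Col4a4, Col4a5 with Col4a6, Col6a5 with Col6a6, and Col19a1 with the untested Col9a1). Over all 903 pairs of chains tested 263 (29.1%) passed together in this way. Since the strand setting of the counting is not stated, reads of a chain and of an annotated gene that overlaps it on the opposite strand may not be fully told apart. Such an overlap was listed for 17 chains, of which 8 passed in a sex (Col4a1, Col4a2, Col4a5, Col5a1, Col6a4, Col14a1, Col15a1 and Col18a1). Of all 43 chains tested 13 passed in neither sex. The overlap was taken over whole genes, introns included, in an earlier Gencode release. Whether the spliced transcripts overlap was not tested.

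RefSeq promoter windows on GRCm38.p6 were matched by symbol for 35 of the 44 chains. Printed are 4, those of Col1a2 and Col6a1, which passed in opposite directions in the sexes, Col3a1, which rose in males, and Col11a1, which fell in both. Each gives the 250 bases before the start, 5′ to 3′ on the strand of the gene, and capitals mark matches on either strand to the letters CCAAT, to the GC box GGGCGG, to the TATA box, spelled TATAAA, and to the AP-1 site, spelled TGANTCA.
Col1a2, chr6:4505368-4505617, plus strand: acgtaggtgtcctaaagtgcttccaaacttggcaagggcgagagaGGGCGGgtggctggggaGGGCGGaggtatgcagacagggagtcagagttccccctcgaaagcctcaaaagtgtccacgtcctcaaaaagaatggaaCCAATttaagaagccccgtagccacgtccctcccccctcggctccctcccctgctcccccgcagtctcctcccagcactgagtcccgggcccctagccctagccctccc
Col3a1, chr1:45311288-45311537, plus strand: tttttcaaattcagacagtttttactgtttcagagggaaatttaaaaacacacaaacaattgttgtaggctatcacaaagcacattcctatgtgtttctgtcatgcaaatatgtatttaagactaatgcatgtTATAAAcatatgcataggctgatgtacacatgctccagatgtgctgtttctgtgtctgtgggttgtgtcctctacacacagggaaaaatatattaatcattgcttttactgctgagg
Col6a1, chr10:76726045-76726294, minus strand: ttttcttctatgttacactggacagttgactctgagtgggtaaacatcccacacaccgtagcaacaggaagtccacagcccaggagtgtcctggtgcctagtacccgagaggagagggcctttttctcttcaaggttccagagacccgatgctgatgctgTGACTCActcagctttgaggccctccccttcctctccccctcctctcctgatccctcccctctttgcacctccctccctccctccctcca
Col11a1, chr3:114030290-114030539, plus strand: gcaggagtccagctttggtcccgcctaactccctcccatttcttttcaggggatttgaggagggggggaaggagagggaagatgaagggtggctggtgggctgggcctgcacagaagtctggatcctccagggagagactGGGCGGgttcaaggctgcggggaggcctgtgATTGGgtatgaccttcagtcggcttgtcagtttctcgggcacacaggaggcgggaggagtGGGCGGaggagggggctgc
The 4 windows differ in these letters. Col1a2 and Col11a1 hold CCAAT and GGGCGG, Col3a1 holds TATAAA alone, and Col6a1 holds TGANTCA alone, the only chain of the 35 to do so. GGGCGG was found in 21 of 35 chains (60.0%) and in 35.4% of all 27025 genes with such a window, CCAAT in 13 (37.1%, against 37.5%), TATAAA in 5 (14.3%, against 14.3%) and TGANTCA in 1 (2.86%, against 7.82%). A match is a description of the letters and not of a factor that binds there.

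Type I collagen is the main fibrillar collagen. Col1a1 was at 23.4 and 26.03 TPM in female sham and 14.7, 13.1 and 13.3 in female axotomy, and at 22.5 and 21.2 in male sham and 26.9, 25.5 and 34.5 in male axotomy. Its groups did not overlap in either sex, with log2FC −0.73 (SE 0.15, padj = 0.0118) in females, against 0.61 (SE 0.15, padj = 0.0114) in males by edgeR. Col1a2 was at 72.7 and 74.1 TPM in female sham and 51.8, 47.8 and 49.7 after axotomy, and at 69.6 and 63.3 in male sham and 77.8, 77.9 and 85.6 after axotomy. It too had no overlap within a sex, with log2FC −0.44 (SE 0.10, padj = 0.0153) and 0.47 (SE 0.10, padj = 0.00494). Without female sham 2 neither chain passed in females (padj = 0.123 and 0.128), and both passed in males with any 1 library left out. The ratio of Col1a1 to Col1a2 TPM was 0.267 to 0.283 in female axotomy, below the 0.322 to 0.404 of the other 7 libraries.

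Types III and V assemble with type I in mixed fibrils, and types II and XI form the fibrils of cartilage. Col3a1 was at 45.0 and 33.1 TPM in female sham, 31.8, 27.5 and 28.1 in female axotomy, 29.2 and 37.1 in male sham, and 53.3, 46.9 and 77.7 in male axotomy. It rose in males (log2FC 1.05, SE 0.25, padj = 0.0108) and did not pass in females (−0.30, SE 0.24, padj = 0.444). Col5a3 did not pass in either sex, with 44.2 and 44.3 TPM in female sham, 40.7, 38.0 and 34.0 after axotomy, 42.9 and 42.9 in male sham, and 38.7, 44.1 and 34.8 after axotomy. Col5a1 and Col5a2, the common type V chains that nucleate type I fibrils, rose in males with log2FC 0.48 (padj = 0.0343) and 0.40 (padj = 0.008), against −0.33 (padj = 0.170) and −0.24 (padj = 0.102) in females. Col5a2 was at 13.9 and 15.0 TPM in female sham, 10.9, 11.8 and 11.0 after axotomy, 12.97 and 12.5 in male sham, and 13.7, 14.5 and 15.9 after axotomy. Its male libraries did not overlap with sham. Col5a1 lost the male call without male sham 2 (padj = 0.224).

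Col11a1, a type XI chain that limits fibril diameter and whose promoter letters are printed above, was the fibrillar chain that fell in both sexes. It was at 21.8 and 19.9 TPM in female sham against 9.73, 11.0 and 11.2 after axotomy, and at 18.2 and 16.4 in male sham against 8.94, 12.0 and 12.2. Axotomy libraries of both sexes lay below both sham groups, with log2FC −0.85 (SE 0.11, padj = 0.00176) in females, against −0.45 (SE 0.11, padj = 0.0125) in males, the latter without male sham 1 at padj = 0.114. Col2a1 had 0.826 and 1.05 TPM in female sham, 0.503, 0.513 and 0.501 after axotomy, 0.698 and 0.615 in male sham, and 1.07, 0.864 and 0.771 after axotomy. Its log2FC was −0.77 (SE 0.20, padj = 0.0302) in females, against 0.65 (SE 0.20, padj = 0.0283) in males, lost without female sham 2 (padj = 0.253) and male sham 2 (padj = 0.177). Col27a1, a minor fibrillar chain, fell in females (−0.41, padj = 0.0210, and 0.158 without female sham 1) and had log2FC 0.06 (padj = 0.695) in males. Col27a1 was at 7.57 and 7.01 TPM in female sham, 4.50, 5.35 and 5.38 after axotomy, 6.84 and 6.33 in male sham, and 5.48, 7.11 and 5.46 after axotomy. Col24a1 and Col11a2 did not pass in either sex.

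**Figure D4:**
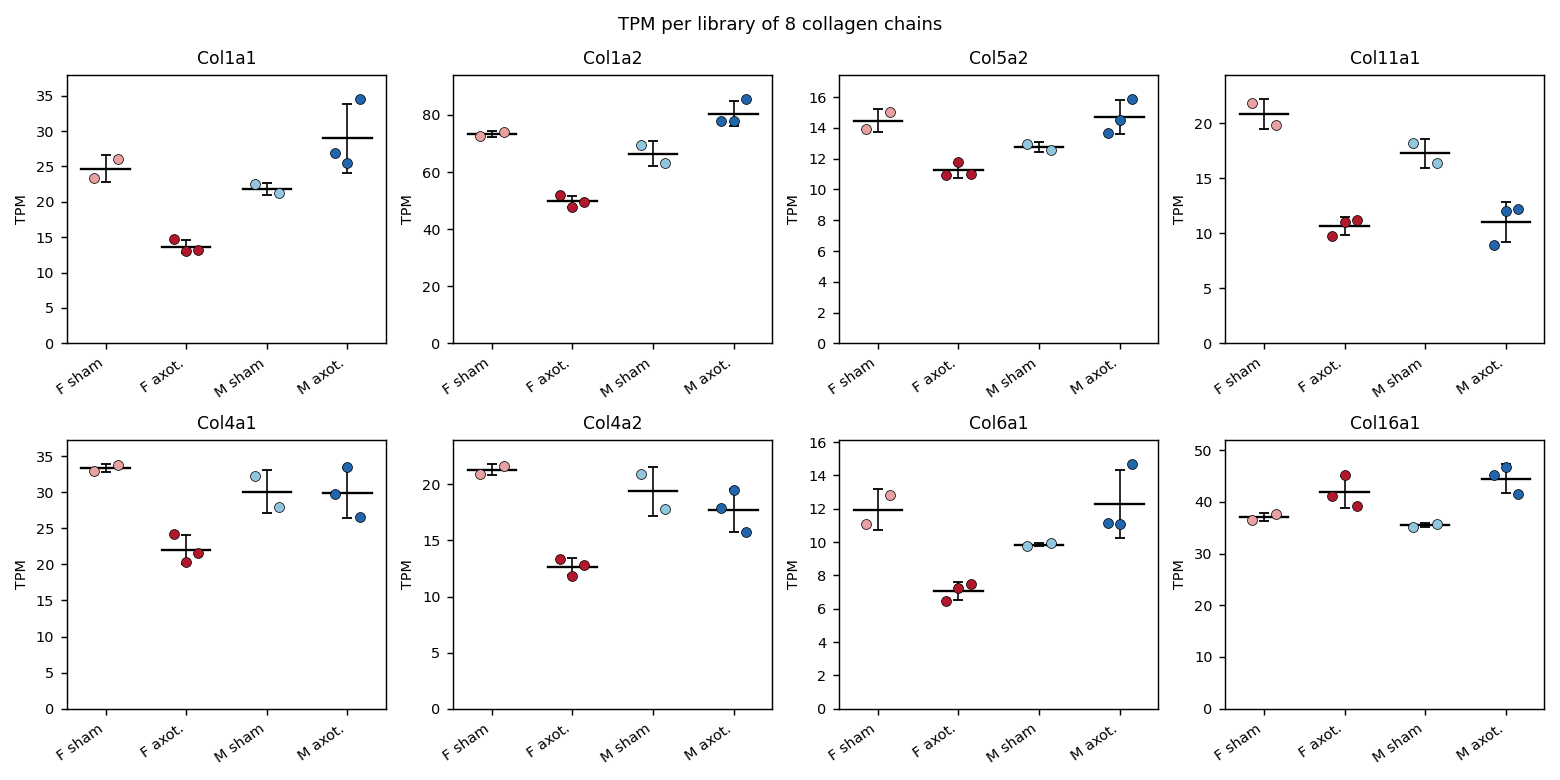
TPM of 8 chains in every library (points), with the group mean and SD; F is female, M male. Col1a1, Col1a2, Col5a2 and Col6a1 are lower in female axotomy and higher in male axotomy than in sham of the same sex, Col4a1 and Col4a2 are lower in female axotomy only, Col11a1 is lower in both sexes and Col16a1 higher in both.

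Type IV chains, which make up basement membranes, fell in females for 4 of 6 members and passed for 0 of 6 in males, where all 6 male responses were above the female ones. Col4a1 was at 33.0 and 33.7 TPM in female sham and 24.3, 20.3 and 21.6 after axotomy, and at 32.2 and 28.01 in male sham and 29.7, 33.5 and 26.6 after axotomy. Col4a2, its partner in the common trimer, was at 21.0 and 21.6 TPM in female sham and 13.3, 11.9 and 12.8 after axotomy, and at 20.9 and 17.8 in male sham and 17.9, 19.5 and 15.7 after axotomy. Female groups did not overlap for either chain, and male groups did. By edgeR the female log2FC was −0.48 (SE 0.10, padj = 0.0143) for Col4a1 and −0.63 (SE 0.09, padj = 0.00248) for Col4a2, and the male values were 0.18 (padj = 0.201) and 0.06 (padj = 0.646). Mean male TPM went from 30.1 in sham to 29.9 after axotomy for Col4a1 and from 19.4 to 17.7 for Col4a2. The log2FC rest on normalized CPM, so the sign of a small value can differ from that of TPM.

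Col4a4, a chain of the specialised network of kidney and other tissues, fell in females (log2FC −0.71, SE 0.13, padj = 0.00870), as did Col4a5 (−0.93, SE 0.22, padj = 0.0206), at 1.18 and 1.48 TPM in female sham and 0.811, 0.568 and 0.551 after axotomy. Col4a4 was at 0.980 and 0.983 TPM in female sham, 0.515, 0.514 and 0.634 after axotomy, 0.977 and 0.989 in male sham, and 0.707, 0.689 and 0.778 after axotomy. The male log2FC of Col4a4 was −0.24 (padj = 0.188). In males Col4a5 had 1.26 and 1.23 TPM in sham and 0.886, 0.915 and 1.13 after axotomy (log2FC −0.15, padj = 0.624). Col4a3 stayed just short of the threshold in females (−0.99, SE 0.36, padj = 0.101), and Col4a6, at 6 counts or more, gave −0.43 (padj = 0.552). After axotomy Col4a1 (0.50, padj = 0.0540) and Col4a2 (0.54, padj = 0.0269) were higher in males than in females, although Col4a2 lost this call without female axotomy 2 or 3 (padj = 0.151 and 0.108) and Col4a1 without 6 of the 10 libraries. The Col4a1 to Col4a2 ratio was 1.54 to 1.57 in sham libraries and 1.66 to 1.82 after axotomy, without overlap. The female calls of Col4a2 and Col4a4 held with any 1 library left out, and those of Col4a1 (padj = 0.122) and Col4a5 (padj = 0.200) were lost without female sham 2.

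FACITs gave 1 higher and 1 lower of 8 tested in females, and 2 higher and 1 lower in males. Col16a1, which is found at the edges of fibrils and basement membranes, rose in both sexes, from 36.5 and 37.6 TPM in female sham to 41.2, 45.2 and 39.2 after axotomy and from 35.2 and 35.7 in male sham to 45.3, 46.8 and 41.4. Its groups did not overlap, with log2FC 0.30 (SE 0.08, padj = 0.0411) in females, against 0.52 (SE 0.08, padj = 0.00175) in males. Without female sham 1 or 2 or female axotomy 1 or 2 the female value missed the threshold (padj = 0.120 to 0.205). Both directions were reversed when the longest transcript alone was counted (−0.21 in females and −0.66 in males).

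Col14a1, a FACIT of tendon and skin, was at 9.80 and 8.43 TPM in female sham, 8.11, 8.11 and 7.54 after axotomy, 9.21 and 7.82 in male sham, and 10.7, 10.7 and 9.31 after axotomy. It rose in males (log2FC 0.46, SE 0.11, padj = 0.00956, and 0.123 without male sham 2) and not in females (−0.08, padj = 0.662). Col12a1, its near relative, passed in neither sex, at 7.84 and 9.67 in female sham, 7.06, 6.24 and 7.24 after axotomy, 6.64 and 9.07 in male sham, and 8.75, 6.82 and 13.1 after axotomy. Col19a1, a FACIT also made by neurons, fell in males, from 1.77 and 1.51 TPM to 0.567, 0.828 and 0.644 (log2FC −1.08, SE 0.25, padj = 0.00857). In females it was at 1.29 and 1.52 TPM in sham and 0.635, 0.830 and 1.40 after axotomy, with overlap and padj = 0.267. Col9a2, a cartilage FACIT chain, fell in females (−0.60, padj = 0.0607) and lost that call without either female sham library, female axotomy 1 or 3, or male sham 2 (padj = 0.105 to 0.240). Col9a3, Col20a1 and Col22a1, the other FACITs tested, passed in neither sex.

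Type VI collagen forms beaded filaments around cells from Col6a1, Col6a2 and a further chain. Col6a1 was at 11.1 and 12.8 TPM in female sham and 6.46, 7.26 and 7.48 after axotomy, and at 9.78 and 9.92 in male sham and 11.2, 11.1 and 14.7 after axotomy. Without overlap in either sex, its log2FC was −0.64 (SE 0.14, padj = 0.0158) in females, against 0.52 (SE 0.14, padj = 0.0174) in males, and it was higher in males than in females after axotomy (0.88, SE 0.13, padj = 0.0247). Col6a2 followed it with −0.53 (padj = 0.0280) and 0.36 (padj = 0.0637). The female values of both missed the threshold without female sham 2 (padj = 0.168 and 0.233), the male value of Col6a1 without male sham 1 (padj = 0.112), and that of Col6a2 without male sham 1 or 2 or male axotomy 3 (padj = 0.129 to 0.254). The ratio of Col6a1 to Col6a2 TPM stayed between 0.839 and 1.16 in all libraries.

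The further chains differed from them. Col6a3, the usual one, was at 5.78 and 7.64 TPM in female sham, 6.04, 6.23 and 6.10 after axotomy, 5.78 and 4.52 in male sham, and 9.52, 7.32 and 10.2 after axotomy, with log2FC −0.01 (padj = 0.979) in females, against 1.01 (SE 0.19, padj = 0.00326) in males. Col6a5, an alternative to it, had the highest increase of all chains in both sexes at a low level. It was at 0.256 and 0.319 TPM in female sham, 1.86, 0.552 and 2.02 after axotomy, 0.277 and 0.275 in male sham, and 1.09, 1.52 and 0.470 after axotomy. Its log2FC was 2.45 (SE 0.58, padj = 0.0261) in females, against 2.05 (SE 0.57, padj = 0.0223) in males, and each call was lost without either sham library of that sex (padj = 0.132 to 0.174). Col6a4 rose in females (1.44, SE 0.47, padj = 0.0696), at 0.145 and 0.137 TPM in sham and 0.411, 0.172 and 0.506 after axotomy. Its male libraries overlapped, at 0.216 and 0.395 in sham and 0.259, 0.239 and 0.125 after axotomy (−0.34, padj = 0.602). Col6a4 lost the female call without either female sham library or female axotomy 1 or 3 (padj = 0.147 to 0.313).

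Among the remaining chains, the multiplexins Col15a1 and Col18a1, basement membrane proteoglycans whose ends can be cut off as endostatins, rose in males. Col15a1 was at 21.1 and 14.9 TPM in female sham, 15.1, 16.0 and 14.2 after axotomy, 15.4 and 13.2 in male sham, and 27.5, 23.7 and 30.7 after axotomy. By edgeR the log2FC of Col15a1 was 1.13 (SE 0.18, padj = 0.00175) in males and −0.13 (padj = 0.657) in females, and Col18a1 gave 0.55 (SE 0.11, padj = 0.00390) and 0.18 (padj = 0.282). With long transcripts alone Col15a1 gave 0.30 in males and −0.72 in females, both called, and its long transcripts averaged 13.5 TPM in male sham and 14.4 in male axotomy against 0.788 and 12.9 for the short ones. Col18a1 was at 8.09 and 8.49 TPM in female sham, 9.11, 9.26 and 7.60 after axotomy, 7.43 and 7.43 in male sham, and 9.67, 10.04 and 8.91 after axotomy, so its male groups did not overlap. The short-chain network chains Col8a1 and Col8a2, known from vessel walls and cornea, rose in males by 0.75 each (padj = 0.0139 and 0.0155), and each lost the call without male sham 1 (padj = 0.108 and 0.135). Col8a1 was at 4.86 and 5.19 TPM in male sham and 6.60, 6.17 and 9.23 after axotomy, and at 5.33 and 6.33 in female sham and 4.09, 4.92 and 5.63 after axotomy. Col8a2 was at 2.35 and 2.73 TPM in male sham and 3.61, 3.17 and 4.33 after axotomy, and at 3.52 and 3.29 in female sham and 2.62, 2.02 and 1.98 after axotomy. Female groups did not overlap for Col8a2, but its log2FC of −0.50 (padj = 0.117) did not pass.

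Col7a1, the anchoring fibril chain of skin, was at 3.61 and 2.78 TPM in female sham, 9.84, 8.11 and 6.89 after axotomy, 2.19 and 4.49 in male sham, and 5.63, 5.81 and 5.005 after axotomy. Counted over all its transcripts it rose in both sexes, with log2FC 1.50 (SE 0.28, padj = 0.00878) in females, against 0.93 (SE 0.28, padj = 0.0263) in males, and lost the calls without female sham 2 (padj = 0.115) and male sham 1 (padj = 0.195). With long transcripts alone Col7a1 passed in neither sex (log2FC 0.28 and 0.32), and with the longest alone both values were negative, as given further on. Col25a1, a transmembrane chain of neurons, fell in both, from 3.15 and 3.23 TPM in female sham to 1.34, 2.22 and 2.26, and from 3.12 and 2.89 in male sham to 1.19, 2.02 and 1.83. Its log2FC was −0.61 (SE 0.21, padj = 0.0865) and −0.65 (SE 0.21, padj = 0.0369), the first lost without either sham library of either sex or female axotomy 1 or 2 (padj = 0.107 to 0.322), the second without either male sham library or male axotomy 1 (padj = 0.101 to 0.173). Col23a1, another transmembrane chain, was at 16.8 and 15.1 TPM in female sham, 15.2, 13.1 and 12.6 after axotomy, 14.3 and 12.6 in male sham, and 16.2, 15.5 and 14.5 after axotomy, and rose in males (0.39, padj = 0.0257, and 0.206 without male sham 2).

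Col26a1 was at 5.05 and 4.42 TPM in female sham, 3.33, 3.73 and 4.19 after axotomy, 5.36 and 4.37 in male sham, and 5.56, 5.90 and 5.89 after axotomy. It rose in males (log2FC 0.44, SE 0.13, padj = 0.0270, and 0.250 without male sham 2) and was higher in males than in females after axotomy (0.69, SE 0.12, padj = 0.0478). Col28a1, the second most abundant chain, was at 43.8 and 48.8 TPM in female sham, 34.6, 39.2 and 39.2 after axotomy, 44.5 and 41.3 in male sham, and 42.8, 42.2 and 44.0 after axotomy. Its male log2FC of 0.20 (SE 0.09, padj = 0.0949) passed narrowly and was lost in 9 of the 10 fits with 1 library left out. Col10a1, Col13a1, Col17a1 and Col6a6, all below a mean of 1 TPM, passed in neither sex.

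Part of these increases lay in short annotated transcripts. Salmon divides the reads of a gene among its transcripts, and a short transcript gains much TPM from few reads. Transcripts were therefore split into long ones, with at least 50% of the length of the gene's longest, and short ones. Col7a1-208, a retained-intron transcript of 525 bases, held on average 34.1% of Col7a1 TPM and was listed at 0 in both female sham libraries and male sham 1. Long Col7a1 transcripts were at 1.92 and 1.71 TPM in female sham and 2.22, 1.93 and 1.89 after axotomy, whereas short ones were at 1.69 and 1.07 against 7.62, 6.18 and 5.00. With long transcripts alone, Col7a1 passed in neither sex (log2FC 0.28, padj = 0.236 in females, and 0.32, padj = 0.126 in males).

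Col3a1 and Col15a1 gave another picture by this count. Long Col3a1 transcripts were at 30.6 and 32.6 TPM in female sham and 16.7, 16.2 and 20.3 after axotomy, and at 28.8 and 24.9 in male sham and 33.7, 31.0 and 45.2 after axotomy. With them alone Col3a1 fell in females (log2FC −0.71, padj = 0.0242) and rose in males (0.67, padj = 0.0151). The short part lay mostly in Col3a1-205 of 737 bases and varied within groups, at 14.4 and 0.523 TPM in the female sham libraries. Long Col15a1 transcripts were at 14.0 and 14.3 TPM in female sham and 6.54, 8.07 and 9.07 after axotomy, and at 14.9 and 12.2 in male sham and 13.5, 13.8 and 15.9 after axotomy. Their log2FC was −0.72 (padj = 0.00539) in females and 0.30 (padj = 0.0866) in males, while Col15a1-203 of 1755 bases made up most of the short part.

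Col6a3 kept its increase in males with long transcripts (log2FC 0.44, padj = 0.0173), smaller than the 1.01 of all transcripts, of which the retained-intron transcript Col6a3-206 of 646 bases held 32.8% on average. Col6a5 kept a smaller increase in both sexes (1.03, padj = 0.00585, and 1.07, padj = 0.00213). Col2a1 passed in males (0.37, padj = 0.0957) and not in females (−0.38, padj = 0.149). The type I and type VI chains Col1a1, Col1a2, Col6a1 and Col6a2 passed in both sexes, in opposite directions, with long transcripts too. By this count 16 chains fell and 4 rose in females, where 10.3% of all genes fell and 11.3% rose, and 3 fell and 18 rose in males, where 20.9% fell and 22.6% rose. With the longest transcript alone, the male log2FC of Col6a3 (−0.18) and Col2a1 (−0.07) and both values of Col7a1 (−3.11 in females and −0.55 in males) were negative. These splits were made after the data had been seen.

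**Figure D5:**
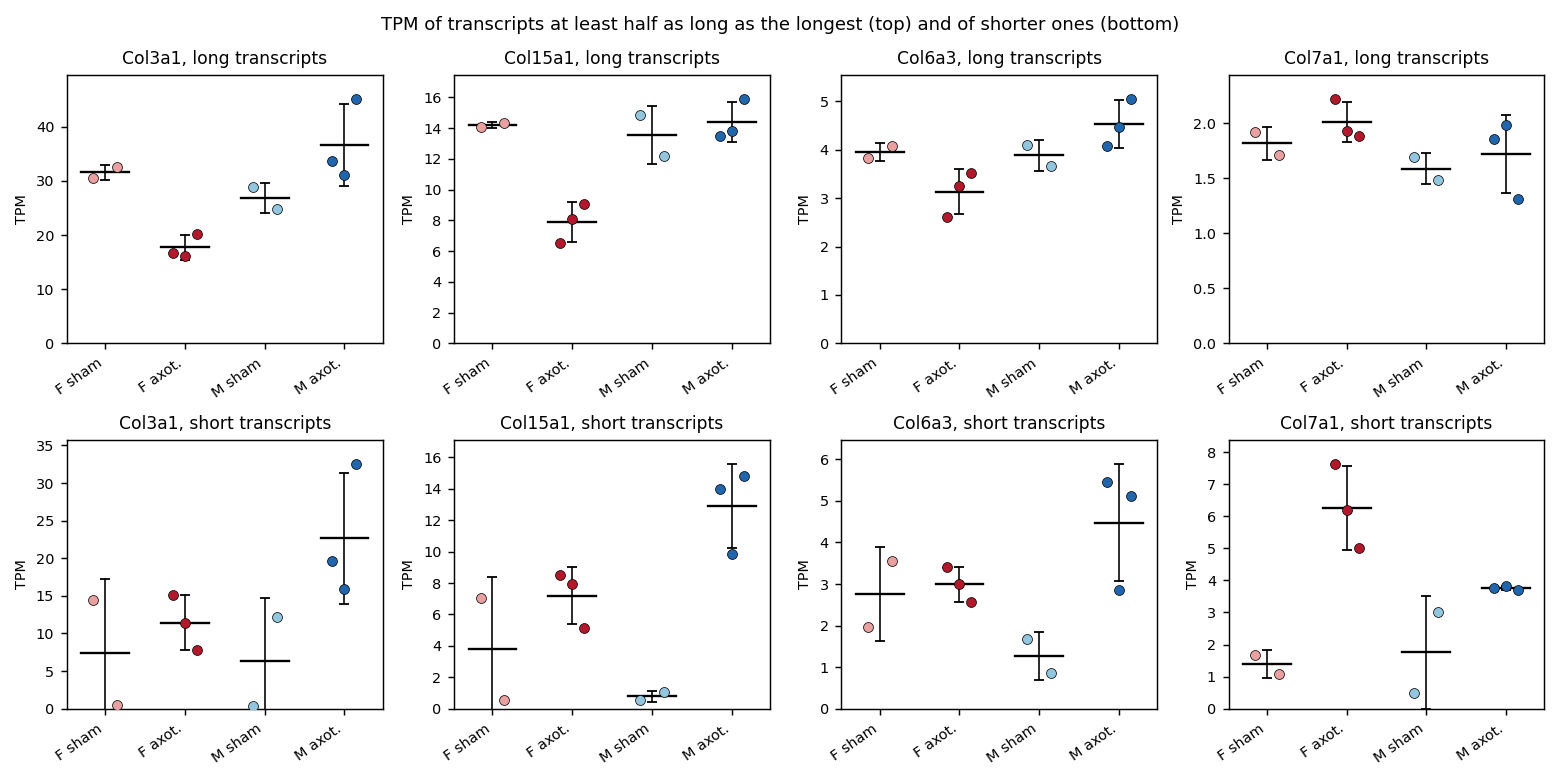
TPM of long (top row) and short (bottom row) transcripts of 4 chains in every library (points), with the group mean and SD, the SD bar being cut at 0; F is female, M male. Long Col3a1 and Col15a1 transcripts are lower in female axotomy (16.2 to 20.3 and 6.54 to 9.07 TPM) than in female sham (30.6 to 32.6 and 14.0 to 14.3), long Col7a1 transcripts differ little between groups, and its short ones are at 5.00 to 7.62 TPM in female axotomy against 1.07 to 1.69 in female sham.

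Genes that make, process, bind or degrade collagen were counted from a list of 51 tested. In females 6 rose and 3 fell, where 10.4% of all genes rose and 9.74% fell, and in males 25 rose and 5 fell, where 21.8% rose and 20.1% fell. The female counts lay near those shares or below. The group with the most calls was that of prolyl and lysyl hydroxylation, the modifications that make the helix stable and ready for cross-links, with 11 of 15 higher and 1 lower in males and 2 higher in females. In males 4 of 7 chaperone and export genes and 2 of 6 degrading enzymes rose and 0 fell, and in females 0 of either passed. Of 10 receptors 5 rose and 2 fell in males, and 1 rose and 1 fell in females. Of 8 propeptide cleavage genes 2 rose and 2 fell in each sex. Of 5 cross-linking genes 1 rose and 0 fell in each sex. Serpinh1, the collagen chaperone Hsp47, was at 58.1 and 45.7 normalized CPM in male sham and 169, 104 and 135 after axotomy, and at 65.4 and 55.6 in female sham and 72.8, 71.4 and 73.9 after axotomy. It rose in males (log2FC 1.39, SE 0.18, padj = 0.000918), not in females (0.26, padj = 0.348), and was higher in males than in females after axotomy (0.90, padj = 0.0498).

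The prolyl hydroxylase subunit P4ha1 rose in males (log2FC 0.62, padj = 0.00188), at 39.0 and 36.3 normalized CPM in sham and 65.4, 51.9 and 56.0 after axotomy, and Colgalt2, a galactosyltransferase of hydroxylysine, fell there (−0.54, padj = 0.00221), from 57.4 and 57.0 to 36.1, 45.0 and 37.3. In females P4ha1 stood at 48.3 and 42.6 in sham and 44.5, 43.3 and 42.8 after axotomy, and Colgalt2 at 53.4 and 56.2 in sham and 45.9, 45.1 and 48.2. Bmp1 and Tll1, proteases that cut the carboxyl propeptides, moved apart in both sexes. Bmp1 was at 25.8 and 29.2 in female sham against 45.0, 40.2 and 37.1, and at 26.1 and 25.2 in male sham against 50.3, 50.9 and 46.5 (log2FC 0.57, padj = 0.00509, and 0.94, padj = 0.000369). Tll1 was at 9.14 and 10.5 in female sham against 5.00, 4.93 and 4.64, and at 9.01 and 7.47 in male sham against 6.35, 5.44 and 5.20 (−1.01, padj = 0.00150, and −0.54, padj = 0.00998).

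Pcolce, which enhances Bmp1, rose in males (log2FC 1.09, padj = 0.00186), at 22.6 and 25.1 normalized CPM in sham and 51.8, 39.2 and 61.5 after axotomy, against 30.1 and 28.5 in female sham and 37.6, 31.1 and 28.05. Adamts2, which cuts the amino propeptide of fibrillar chains, fell in females (−0.68, padj = 0.0183), from 12.2 and 16.4 to 9.004, 8.56 and 9.09, and was at 12.95 and 14.2 in male sham and 11.2, 12.3 and 15.7 after axotomy. Of the cross-linking oxidases, Loxl2 rose in both sexes, from 11.4 and 10.9 to 23.0, 21.2 and 14.8 in females (0.82, padj = 0.0123) and from 10.1 and 9.53 to 21.0, 16.7 and 19.0 in males (0.94, padj = 0.00277). Lox passed in neither, at 57.8 and 44.3 in female sham, 39.1, 19.5 and 16.5 after axotomy, 29.4 and 30.2 in male sham, and 54.8, 30.2 and 49.9 after axotomy. The common collagen receptor subunit Itgb1 rose in both sexes, from 373 and 385 to 607, 559 and 539 in females (0.58, padj = 0.00268) and from 348 and 360 to 606, 522 and 552 in males (0.66, padj = 0.000850). Its partner Itga11 fell in both, from 3.85 and 5.00 to 2.11, 2.78 and 2.88 (−0.77, padj = 0.0355) and from 3.82 and 4.42 to 2.21, 3.09 and 3.26 (−0.53, padj = 0.0714).

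Marker lists of several cell types moved after axotomy, in males more than in females by count. The 10 fibroblast markers summed to 381 to 401 CPM in male sham and 610 to 1360 in male axotomy, and to 524 to 593 in female sham and 497 to 571 in female axotomy. In males, where 21.8% of all genes rose and 20.1% fell, 9 of these 10 rose, as did 7 of 9 meningeal, 8 of 8 macrophage, 7 of 7 Schwann cell and 5 of 5 erythrocyte markers. Of 8 satellite glia markers 4 rose and 2 fell, of 9 smooth muscle and pericyte markers 3 rose and 4 fell, of 9 endothelial markers 0 rose and 3 fell, and of 8 sensory neuron markers 0 rose and 6 fell. In females, where 10.4% of all genes rose and 9.74% fell, 0 of 10 fibroblast, 0 of 9 meningeal, 0 of 7 Schwann cell and 0 of 9 endothelial markers passed, whereas 5 of 8 satellite glia and 5 of 8 sensory neuron markers fell, with medians of −0.31 and −0.27, and 1 satellite glia and 1 macrophage marker rose. Of 9 smooth muscle and pericyte markers 1 rose and 1 fell there. No fibroblast marker was at 0 in any group, and Dcn, the most abundant, was at 298 to 308 CPM in male sham and 467 to 1093 in male axotomy. With a covariate for fibroblast and meningeal markers (their average log2 CPM in a library), 0 chains passed in males. Of all genes 1.77% were then higher and 0.562% lower there. In females 4 chains were higher and 18 lower, where 12.7% and 12.0% of all genes were. After axotomy 3 chains were higher in males than in females (Col1a1, Col1a2 and Col4a2), where 0.0768% of all genes were. The covariate did not overlap between male axotomy (2.76 to 3.75) and male sham (2.19 and 2.39) libraries, so it cannot be told apart from the injury in males. Cartilage markers summed to 73.0 to 76.0 CPM in female sham and 57.1 to 62.4 after axotomy. In males they were at 79.7 to 80.0 in sham and 64.8 to 76.1 after axotomy. Of 7 tested 0 rose and 1 fell in females, and 3 rose and 3 fell in males. Of 5 tendon markers 0 rose and 1 fell in females, and 1 rose and 2 fell in males. Of 6 bone markers 0 rose and 1 fell in females, and 0 rose and 2 fell in males. Bone markers were at 17.3 to 22.2 CPM over all libraries, and skeletal muscle markers reached 134 CPM in a female axotomy library. The part of these cells in the collagen values was not tested.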

How the data were processed

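RNA was measured in 10 libraries of pooled mouse DRG (TruSeq stranded poly-A mRNA, NovaSeq). After trimming with Trimmomatic 0.39 the authors quantified Gencode M27 transcripts (GRCm39) with Salmon 1.3.0, with sequence and GC bias correction, and deposited estimated counts and TPM per transcript. Which strand setting was used is not stated in these sources. Estimated counts and TPM were summed per gene, and counts rounded. Replicate numbers came from the titles.

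Tests used edgeR 4.0.16 in R 4.3.3 (quasi-likelihood F test, all 10 libraries in 1 fit of 4 group means, TMM, an offset for average transcript length, filterByExpr with a minimum count of 10, padj under 0.1 over 20836 genes). SE is the absolute log2FC divided by the square root of F. The factor removal named in the study's methods was not repeated. Alternatives were DESeq2 1.42.0, other scaling, filters, transcripts and covariates, and each library left out. The code was tested on simulated data. Values per library are given for the 3 chains of each class with the highest mean TPM, the 6 called chains with the largest increase and 4 with the largest decrease in each axotomy comparison, the 6 with the smallest p between the sexes after axotomy, and, of the pathway genes, the 6 called with the smallest p in each axotomy comparison plus Serpinh1 and Lox. Col5a2, Col27a1, Col4a4, Col18a1, Col8a2 and the transcript splits were added after their values were seen. A count of 3 equals 0.0333 to 0.0543 CPM, which limits the lowest chains. The members and lists were chosen with earlier results of these data known.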

Additional observations from a re-analysis of the deposited data

Results flagged for a closer look

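For 10 chains every female axotomy library lay below every female sham library and every male axotomy library above every male sham library in normalized CPM. In TPM the male libraries of 2 of these chains overlapped. Col6a2 was at 9.97 and 10.3 TPM in male sham and 9.64, 11.0 and 13.4 after axotomy. Col28a1 was at 44.5 and 41.3 TPM in male sham and 42.8, 42.2 and 44.0 after axotomy. The difference itself, the male minus the female log2FC, was tested as an interaction by edgeR. It did not pass for any of the 10 chains with the filter on low counts. With no such filter it passed for Col1a1, Col1a2, Col2a1, Col5a2, Col6a1, Col6a2 and Col8a2. With the filter it was 1.34 for Col1a1 and 0.91 for Col1a2 (padj = 0.102 each), 1.42 for Col2a1 and 0.65 for Col5a2 (padj = 0.184 each), 0.81 for Col5a1 (padj = 0.249), 1.16 for Col6a1 (padj = 0.131), 0.89 for Col6a2 (padj = 0.194), 1.25 for Col8a2 (padj = 0.197), 0.67 for Col26a1 (padj = 0.268) and 0.38 for Col28a1 (padj = 0.291).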

How the results depend on the processing

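The interaction of sex and injury gave 0 chains higher in males by edgeR. It gave 16 with the DESeq2 Wald test (2.43% of all genes higher) and 9 with no filter on low counts (0.461%). The replicate block gave 8 (0.37%) and DESeq2 size factors 2 (0.0672%). Long (0.0387%) or protein-coding transcripts alone (0.0339%) gave 1. With 1 axotomy library left out it gave 0 to 20, where 0 to 5.71% of all genes were higher. In females the 4 higher became 2 with no length offset or with the longest transcript alone and 0 to 4 with 1 library left out, and the 13 lower became 4 to 18. In males the 20 higher and 3 lower became 0 and 0 with the marker covariate, where 1.77% of all genes were higher and 0.562% lower. The 20 higher became 13 with the longest transcript alone and 12 to 22 with 1 library left out, and the 3 lower became 1 to 5. The 15 chains higher in males after axotomy became 4 with the axotomy libraries alone, where 0.116% of all genes were higher. They became 3 with the marker covariate (0.0768%), 6 at padj under 0.05 (0.245%) and 8 with the longest transcript alone (0.22%). With 1 axotomy library left out they became 3 to 22 (0.0817% to 8.81%). Some fits with 1 library left out held 1 sham library in a group. The share of all genes called changed with these settings too, and the cause was not tested.

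With type VII, XV and XVIII chains counted as basement membrane, the ratio of axotomy to sham for that class was 0.782 in females and 1.19 in males. That of the other chains was 0.784 and 1.13. The fibrillar ratio of 0.724 was then the lowest in females. The basement membrane share of collagen TPM then overlapped between axotomy and sham in both sexes. In CPM the male ratio was 1.25 for FACITs and 1.24 for all chains. With the marker covariate Col6a2 (−0.031) and Col28a1 (−0.0078) changed sign in males. With the longest transcript alone the sign changed for Col7a1 (−3.11 in females, −0.55 in males), Col16a1 (−0.21 and −0.66), and, in males, Col2a1 (−0.069) and Col6a3 (−0.18).

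Same-numbered libraries did not deviate together from their group means (r −0.0932 to 0.107 over 13 pairs). In a group of 2 sham libraries these deviations mirror each other, so this check cannot decide whether the numbers pair libraries. The replicate block gave 3 higher and 16 lower chains in females, where 11.9% and 12.0% of all genes were. It gave 21 and 4 in males (21.4% and 20.4%), and 17 higher in males after axotomy (2.18%). Most calls were lost with at least 1 of the 10 libraries left out. With 1 axotomy library of the same sex left out, 13 to 15 of 17 female and 21 to 23 of 23 male calls were kept. In those fits 5.52% to 10.4% of all genes were higher and 4.15% to 10.1% lower in females. In males 17.0% to 25.2% were higher and 16.0% to 22.8% lower. Between the sexes after axotomy 3 to 15 of 15 calls were kept with 1 axotomy library left out. Fits without a sham library leave 1 in that group, and fewer of all genes passed in that sex.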
